A study of Arabidopsis thaliana with 8 samples.

Results

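The genes described here are 41 Arabidopsis thaliana genes for proteins of the cytosolic ribosome, 23 of the large (60S) subunit and 18 of the small (40S) subunit. They were chosen by name and by function, with earlier results of these data known, though no measured value was a criterion. For each one the reference annotation names a ribosomal protein in its product or synonyms. Every accessible chromatin region (ACR) whose summit, the point of strongest signal, lay between 1000 bp upstream of the annotated gene start and 500 bp past the gene end was taken. The window held 73 of the 30223 ACRs of the series, at 40 of the 41 genes. Of these ACRs, 41 belonged to 22 large subunit genes and 32 to 18 small subunit genes, and no ACR was shared by 2 of the genes. RPL10B (AT1G26910) had no ACR in its window.

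Chromatin accessibility was measured by ATAC-seq, in which the Tn5 transposase cuts open DNA in nuclei and the fragments are counted per region. All plants were wild-type Col-0, with no mutant, transgene or chemical treatment in any group. The 4 stages, with 2 libraries each, were dry seed (DS), germinating seed after 6 h of light (L6), germinating seed after 26 h of light (L26) and seedling after 57 h of light (L57). Light followed stratification, a moist cold treatment, and the plants grew in liquid medium under continuous light. The labels state that seed coats were removed from the germinating seeds by pressing and a sucrose step. The handling of dry seeds and seedlings is not stated, so stage and tissue composition cannot be told apart. The study places L26 at the time when the root had emerged in part of the seeds, and L57 at opened green cotyledons.

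The cytosolic ribosome translates nuclear messages and joins a small subunit, which decodes the mRNA, with a large subunit, which forms the peptide bonds. Plants encode each ribosomal protein by a family of paralogous genes whose products are nearly alike, and cells that resume growth are known to transcribe these genes strongly. Promoters of plant ribosomal protein genes often hold 2 short elements: the telo-box, which has the sequence of the plant telomere repeat, and site II elements, which TCP transcription factors bind. Dry seeds hold stored ribosomes and mRNAs, and new ribosomes are built as the embryo starts to grow.

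Total counts in ACRs were between 1534759 and 3734831 per library, highest at DS and lowest at L57, so that the seedling values carry the largest counting error. Values are given as CPM, that is, reads in an ACR scaled by the library's total, from the deposited table, in which a trend of signal with abundance had been removed between libraries. The 2 libraries of a stage correlated with a Pearson r of 0.914 to 0.960 across ACRs, and all 4 pairs differed by more than sampling noise. The labels do not say that the 2 libraries came from separate cultures, and p-values may therefore reflect technical spread alone. Differences between stages were tested with edgeR's quasi-likelihood test over all 30223 ACRs, and a log2 fold change is called higher or lower where its Benjamini-Hochberg adjusted p was under 0.05. With 2 libraries a stage, lack of overlap between stages was common. The L6 and DS libraries did not overlap, in either direction, at 67.9% of all ACRs, and the other comparisons gave 54.4% to 63.6%. In bulk tissue, a larger share of nuclei with an open site and a more open site in each nucleus cannot be told apart. The 13 marker ACRs of 7 seed reserve and maturation genes summed to 1531 to 1571 CPM at DS, 728 to 794 at L6, and 612.5 to 639 over the L26 and L57 libraries. The 10 ACRs of 5 photosynthesis genes summed to 469.7 to 474.5 CPM at DS, 529 to 536 at L6, 593.5 to 616 at L26 and 710.3 to 737 at L57. Seed coat markers had 5 ACRs at 3 of 4 genes, with 88.6 to 94.5 CPM at DS, 66.6 to 76.8 at L6, 94.4 to 106 at L26 and 94.2 to 106 at L57, and 2 of the 5 were called higher at L26 than at L6. Endosperm markers had 1 ACR at 1 of 3 genes, with 28.5 to 37.2 CPM at DS, 19.2 to 22.6 at L6, 16.5 to 22.0 at L26 and 28.7 to 29.7 at L57. The part of such tissues in the results below was not tested.

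A promoter ACR, with its summit from 400 bp upstream to 100 bp downstream of the start, was present at 28 of the 41 genes (68.3%), against 9655 of 27444 protein-coding genes (35.2%). Their summits lay from -327 to 76 bp of the start, with a median of -18 bp, and 24 of the 28 were within 100 bp of it. In the annotation, 19 of these summits were intergenic and 9 were in the 5′ UTR of a gene. A further 23 ACRs had their summit inside the gene, 19 lay downstream of the gene end and 3 upstream beyond the promoter. Of the 28 promoter ACRs, 8 also lay at the start of a neighbouring protein-coding gene, as did 6 of the other 45, so that their signal may belong to either gene. Promoter ACRs were stronger, with a median of 37.96 CPM, than the other member ACRs, with a median of 22.99 CPM. Per kb of ACR the medians were 53.3 CPM at member promoters and 42.3 CPM at the other member ACRs, against 52.9 CPM in all promoter ACRs and 42.6 CPM in all ACRs.

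The sequence upstream of the start is shown for 7 genes that the results turn on: copies with and without a promoter ACR, and promoters that were higher or lower at L6. The telo-box was searched as AAACCCTA and site II as TGGGCC and TGGGCT, on both strands, and the capitals mark every match to these letters in the 150 bases before the annotated start, read 5′ to 3′ along the gene. Coordinates are those of the TAIR10.1 assembly, whose nuclear chromosomes have the lengths of the files' TAIR10 build. In RPS5A the telo-box and a site II match share a base, and RPS18C holds neither in these bases.
RPL10A, chr1:4887964-4888113, plus strand: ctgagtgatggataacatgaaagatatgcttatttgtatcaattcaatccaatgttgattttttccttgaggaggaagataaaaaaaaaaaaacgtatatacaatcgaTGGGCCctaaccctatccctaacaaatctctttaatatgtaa
RPL10C, chr1:24838940-24839089, plus strand: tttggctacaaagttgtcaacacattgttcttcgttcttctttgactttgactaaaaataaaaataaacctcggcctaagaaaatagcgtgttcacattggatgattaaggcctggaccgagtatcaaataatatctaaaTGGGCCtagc
RPL10B, chr1:9321500-9321649, plus strand: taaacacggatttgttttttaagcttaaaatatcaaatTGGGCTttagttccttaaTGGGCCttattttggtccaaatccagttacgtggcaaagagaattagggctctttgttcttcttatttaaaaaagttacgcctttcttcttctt
UBQ2, chr2:15171911-15172060, plus strand: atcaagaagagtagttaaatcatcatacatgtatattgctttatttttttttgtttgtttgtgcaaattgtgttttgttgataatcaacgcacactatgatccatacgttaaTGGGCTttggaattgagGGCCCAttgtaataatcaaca
RPS18C, chr4:6173562-6173711, plus strand: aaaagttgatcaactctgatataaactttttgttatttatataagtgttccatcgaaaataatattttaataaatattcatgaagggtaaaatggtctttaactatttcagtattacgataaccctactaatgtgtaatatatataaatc
RPS10B, chr5:16610693-16610842, minus strand: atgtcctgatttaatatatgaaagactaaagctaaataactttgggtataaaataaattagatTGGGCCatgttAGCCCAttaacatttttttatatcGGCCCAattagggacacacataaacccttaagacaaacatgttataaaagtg
RPS5A, chr3:3779546-3779695, minus strand: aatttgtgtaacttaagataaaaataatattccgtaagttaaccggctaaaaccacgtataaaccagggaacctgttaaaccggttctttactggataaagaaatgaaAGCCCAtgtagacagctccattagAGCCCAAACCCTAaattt

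Site II letters were common before the start. In the 250 bases upstream, 28 of the 41 genes (68.3%) held at least 1 match, against 19.2% of all protein-coding genes. The TGGGCC form was found at 25 genes (61.0%, against 13.7% of all genes) and the TGGGCT form at 20 genes (48.8%, against 12.3%). TGGGCC stood at 17 of 23 large subunit genes and at 8 of 18 small subunit genes. The 67 upstream matches had a median position of -52, and 53 of them lay within 100 bases of the start. Within 250 bp of the summit, 71.4% of member promoter ACRs held TGGGCC, against 36.1% of all promoter ACRs. For TGGGCT these shares were 60.7% and 32.6%. RPL24B, whose product helps ribosomes reinitiate after upstream open reading frames, held 3 TGGGCC and 2 TGGGCT matches.

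The telo-box lay mostly after the start. Upstream, 7 of the 41 genes (17.1%) held it, against 4.49% of all protein-coding genes, while in the 250 bases from the start on it was at 29 genes (70.7%), against 9.75% of all genes. The window after the start was added once the values of the upstream window had been seen. Over both windows 48 matches stood at 34 genes, 38 of them after the start, with a median position of 46.5 bases, and 34 lay in an annotated 5′ UTR, 10 upstream and 4 in an intron. The box was on the gene's strand in 23 matches and on the other strand in 25. Within 250 bp of the summit, 22 of the 28 member promoter ACRs (78.6%) held a telo-box, against 1374 of all 8598 promoter ACRs. So did 6 of the 45 other member ACRs (13.3%), against 8.05% of all ACRs. Of the 41 genes, 29 held a telo-box and a site II match within 250 bases of the start, 5 a telo-box only, 5 site II only and 2 neither. Windows of 26 bases at 6 genes around the box are given, with the box in capitals, to show both orientations.
UBQ2, chr2:15172054-15172079, plus strand: atcaacacaAAACCCTAagaaatgga
RPS18C, chr4:6173709-6173734, plus strand: atcattgaaAAACCCTAgcagacctc
RPS10B, chr5:16610659-16610684, minus strand: agtcgaaatTAGGGTTTcgcgttagg
RPL10C, chr1:24839104-24839129, plus strand: agctaaattTAGGGTTTgtttttgcc
EMB2296, chr2:7837105-7837130, plus strand: tggatctcaAAACCCTAatatctgaa
RPS6B, chr5:3260215-3260240, minus strand: tttctcgcaAAACCCTAaaagctgag

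**Figure D1:**
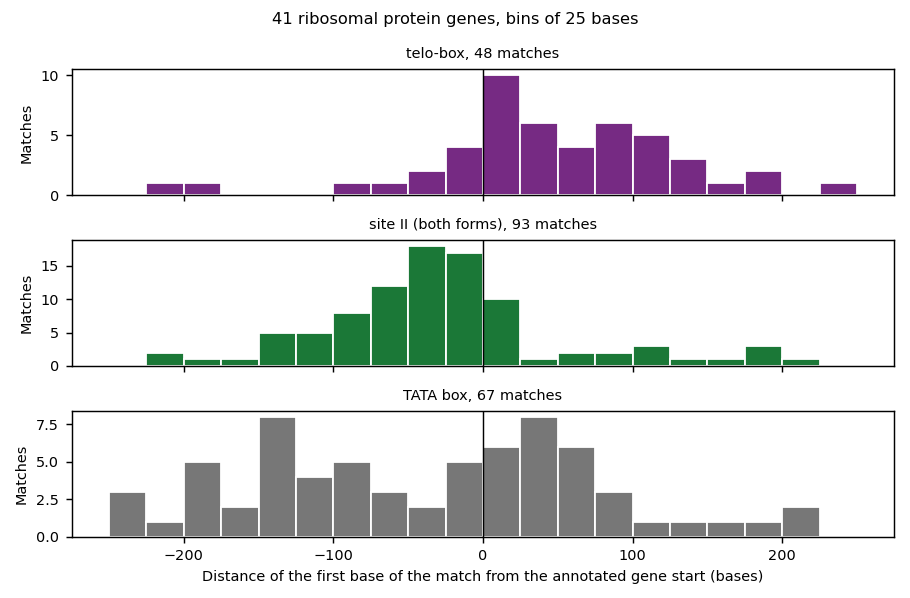
Position of motif matches at the 41 ribosomal protein genes. The x axis gives the distance in bases of the first base of a match from the annotated gene start, with upstream to the left, and bars count matches on either strand. Of the 48 telo-box matches, 38 stand to the right of the start, and 69 of the 93 site II matches to the left of it.

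The TATA and G-box letters were searched too. TATAAA was in the 250 upstream bases of 22 genes (53.7%, against 47.3% of all protein-coding genes), and the G-box CACGTG, bound by bZIP and bHLH factors of abscisic acid and light responses, was at 2 genes (4.88%, against 6.49%). In the 250 bases from the start on, TATAAA was at 24 genes (58.5%, against 26.5%) and the G-box at 0 (against 4.07%). A larger share than in all genes after the start was therefore not limited to the telo-box. RPL10A, which had no telo-box within 250 bases, and RPL10C, which had 2, both held 1 TGGGCC match upstream. The 5 promoter ACRs of genes with a telo-box in the upstream 250 bases had a median log2 fold change of 0.15 at L6 against DS, and the 23 others of 0.26. On either side of the start, 23 of the 28 genes with a promoter ACR held a telo-box. The split therefore does not compare genes with and without the box. All motif counts are descriptions with no test.

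After 6 h of light, accessibility was higher at many ribosomal protein ACRs. Of the 73 ACRs, 32 were higher at L6 than at DS (17.6% of all ACRs were called higher), 3 were lower (14.3% of all ACRs) and 38 did not pass the test. The median log2 fold change was 0.36, against -0.01 over all ACRs. In the large subunit 18 of 41 ACRs were higher and 2 lower, with a median of 0.36, and in the small subunit 14 of 32 were higher and 1 lower, with a median of 0.39. The ACRs higher at L6 belonged to 25 of the 40 genes. Over all ACRs, DESeq2's Wald test called 3189 higher and 1297 lower, where edgeR called 5324 and 4333. The count of higher ACRs was 18 without DS replicate 1 and 20 without L6 replicate 2, fits in which the count over all ACRs was 3330 and 3820 in place of 5324, and DESeq2's Wald test called 17 higher and 1 lower.

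**Figure D2:**
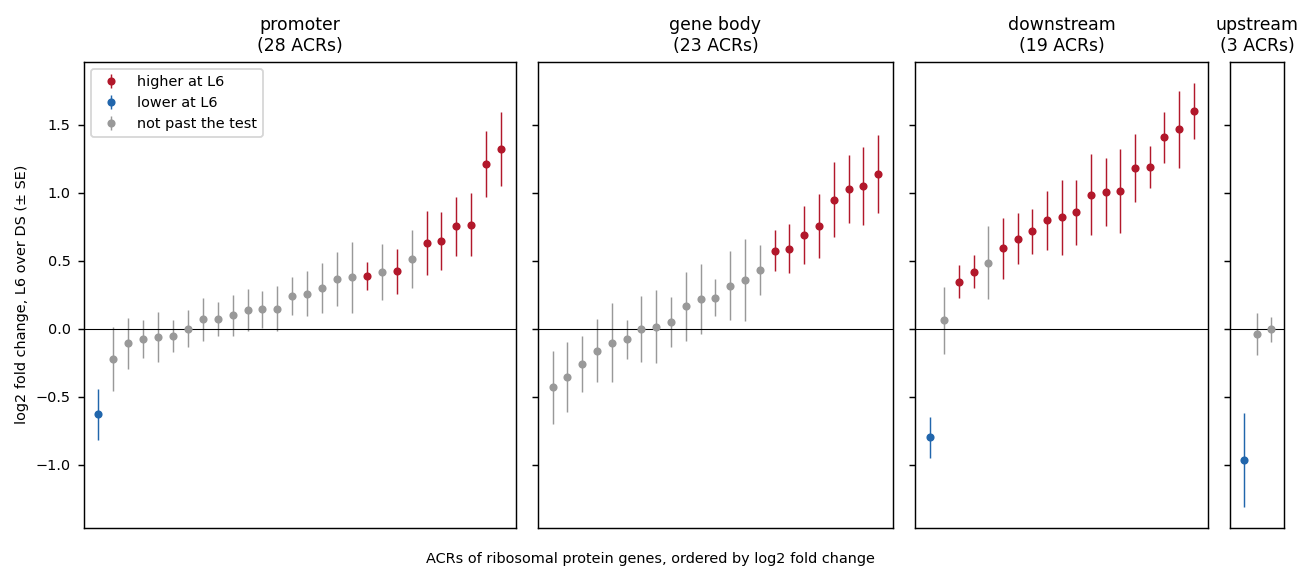
Log2 fold change of the 73 ACRs at L6 over DS, with its standard error, in panels by position of the summit. Red points were higher and blue points lower in edgeR's quasi-likelihood test with Benjamini-Hochberg adjustment, and grey points did not pass. In the downstream panel 16 of 19 points are red, against 8 of 28 in the promoter panel.

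Of the 32 ACRs that rose, 16 lay downstream of the gene end. Of the 19 downstream ACRs, 16 were higher at L6 than at DS and 1 was lower, with a median log2 fold change of 0.82; of the 4718 ACRs within 500 bp downstream of any protein-coding gene, 20.8% were higher and 10.5% lower, with a median of 0.13. Of the 28 promoter ACRs, 8 were higher and 1 lower, with a median of 0.25, against 21.8% and 8.83% of all 8598 promoter ACRs. Of the 23 gene body ACRs, 8 were higher and none lower (0 at an unadjusted p under 0.05 and 0 by DESeq2), against 8.88% and 16.8% of all 13017 gene body ACRs. The 8 higher promoter ACRs became 5 when any 1 of the DS or L6 libraries was left out, and the 1 lower was lost without either L6 library. The 8 higher gene body ACRs became 4 without DS replicate 1, 5 without DS replicate 2 and 3 without L6 replicate 2. DESeq2's Wald test called 3 promoter and 3 gene body ACRs higher. Of the 16 genes with a downstream ACR that rose, 2 also had a promoter ACR that rose, 7 had a promoter ACR that was not called higher and 7 had no promoter ACR. Of the 19 downstream ACRs, 5 lay at the start of a neighbouring gene. Member ACRs were classed by their own gene alone, so these 5 also count among the 8598 promoter ACRs of the series. Over all ACRs, GC-corrected offsets gave 3561 higher calls and DESeq2's Wald test 3189, in place of 5324. With offsets corrected for GC content, 11 of the 19 downstream ACRs were called higher and their median log2 fold change was 0.53. DESeq2's Wald test also called 11 higher, and 9 were higher without DS replicate 1.

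The largest rises at L6 were downstream ACRs. RPL5A (AT3G25520), whose product is known from yeast and animals to bind the 5S rRNA, had an ACR at chr3:9268780-9269395. It lay past the gene end and at the start of AT3G25510, a disease resistance gene, with 18.2 and 15.1 CPM (DS), 45.7 and 55.5 (L6), 57.23 and 40.7 (L26) and 48.6 and 69.8 (L57). All libraries of the 3 later stages were above both DS libraries, with a log2 fold change of 1.60 ± 0.20 (SE), adjusted p = 1.87e-11 at L6 against DS. AT5G20290, an S8e family gene of the small subunit, had an intergenic ACR at chr5:6850998-6851536 with 22.97 and 23.3 CPM (DS), 74.7 and 48.5 (L6), 67.5 and 56.3 (L26) and 31.6 and 37.8 (L57). Its L6 level was above DS by a log2 fold change of 1.41 ± 0.18 (SE), adjusted p = 5.82e-11, and both calls passed in each of the 8 fits that left out 1 library. RPL10A (AT1G14320), whose product joins the 60S subunit late in its assembly, had a downstream intergenic ACR at chr1:4889326-4889872 with 8.97 and 7.81 CPM (DS), 26.4 and 20.3 (L6), 23.1 and 17.9 (L26) and 13.6 and 21.4 (L57). This ACR was higher by a log2 fold change of 1.47 ± 0.28 (SE), adjusted p = 8.82e-06, a call that passed in each of the 8 fits that left out 1 library.

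Among promoters, RPS18C and UBQ2 rose most. RPS18C (AT4G09800, chr4:6173456-6173900, intergenic), for an S18 protein of the small subunit, had 7.26 and 10.9 CPM (DS), 26.4 and 19.5 (L6), 15.1 and 10.2 (L26) and 10.8 and 11.3 (L57), a log2 fold change of 1.32 ± 0.27 (SE), adjusted p = 3.34e-05 at L6 against DS. UBQ2 (AT2G36170, chr2:15171788-15172181, intergenic), which encodes ubiquitin fused to the L40 protein, had 14.6 and 11.98 CPM (DS), 32.1 and 29.7 (L6), 24.8 and 25.5 (L26) and 20.8 and 13.3 (L57), a change of 1.21 ± 0.24 (SE), adjusted p = 1.99e-05. The L6 libraries did not overlap the DS libraries at either gene, and both calls passed in each of the 8 fits that left out 1 library. Of the 8 promoter calls of a rise, these were the only 2 that did. Over all ACRs, the L6 and DS libraries did not overlap at 67.9%, in either direction.

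**Figure D3:**
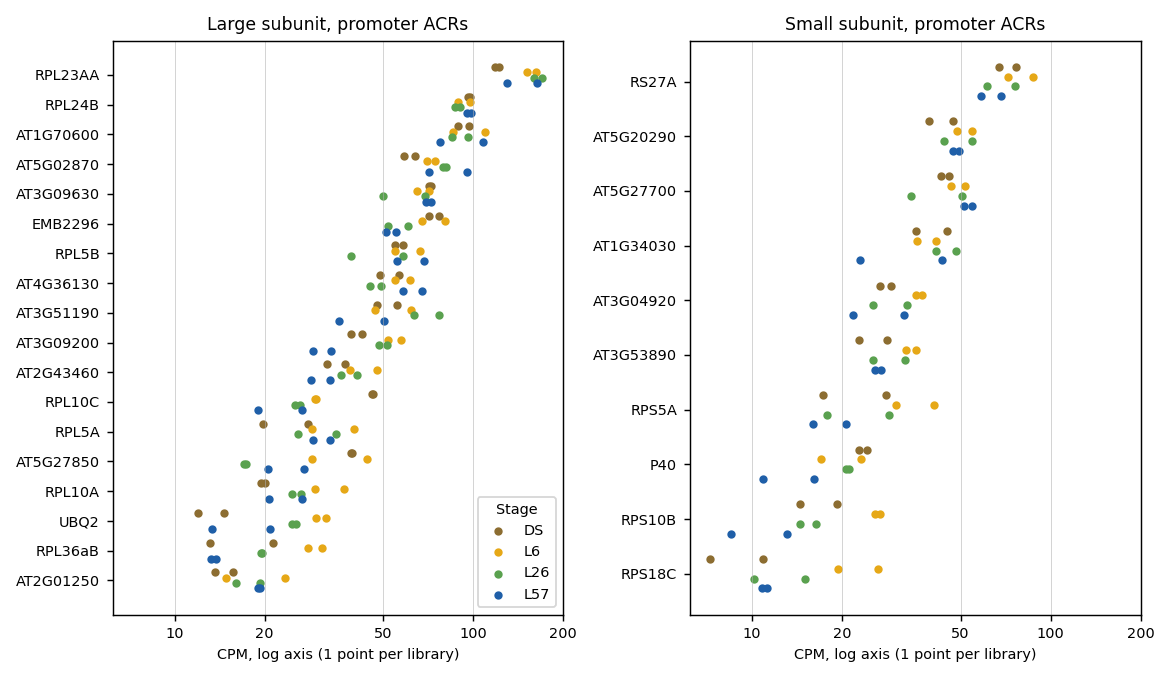
CPM of the 28 promoter ACRs in each library, on a log axis, ordered by mean CPM with large subunit genes on the left and small subunit genes on the right. Each row has 2 points per stage, coloured by stage. L6 had the highest stage mean in 16 of the 28 ACRs, against 36.9% of all promoter ACRs. The lowest level of all, 7.26 CPM at RPS18C, was in a DS library.

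The other 6 promoter ACRs that rose at L6 were those of RPL10A, RPL23AA, RPL36aB, AT3G09200, RPS5A and RPS10B, with log2 fold changes of 0.39 to 0.76. RPL36aB (AT4G14320), whose ACR also lay at the start of AT4G14330, had 31.1 and 27.9 CPM at L6 against 13.2 and 21.4 CPM at DS, and its call was lost without DS replicate 1 (adjusted p = 0.281) or L6 replicate 1 (adjusted p = 0.0644). AT3G09200 (chr3:2824796-2825457, 5′ UTR), annotated as an L10 family protein, had 39.0 and 42.2 CPM (DS), 51.6 and 57.16 (L6), 48.3 and 51.5 (L26) and 33.3 and 29.1 (L57). It was higher at L6 than at DS by a log2 fold change of 0.42 ± 0.17 (SE), adjusted p = 0.0397, and leaving out any 1 of the DS or L6 libraries ended that call (adjusted p of 0.0598 to 0.253). RPS10B (AT5G41520, chr5:16610448-16610879, intergenic) had 19.3 and 14.6 CPM (DS), 26.8 and 25.7 (L6), 16.4 and 14.5 (L26) and 8.53 and 13.1 (L57). Its L6 libraries were above all the others, by a log2 fold change of 0.63 ± 0.24 (SE), adjusted p = 0.0306 against DS, and the call was lost without DS replicate 2 (adjusted p = 0.289), L6 replicate 1 (0.114) or L6 replicate 2 (0.0844), and with TMM, size factor, total count and GC scaling (0.0636 to 0.357).

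Only 3 member ACRs were lower at L6. AT3G04920, an S24e family gene, had a weak intergenic ACR at chr3:1359678-1359988, far upstream of its start, with 11.0 and 13.3 CPM (DS), 5.56 and 6.83 (L6), 16.5 and 11.7 (L26) and 25.01 and 23.99 (L57). It was lower, with a log2 fold change of -0.96 ± 0.34 (SE), adjusted p = 0.0223, resting on 15 and 20 reads at L6 against 41 and 50 reads at DS, and the call was lost without DS replicate 2 (adjusted p = 0.15), L6 replicate 1 (adjusted p = 0.153) or L6 replicate 2 (adjusted p = 0.0658). RPL16A (AT2G42740) had a single ACR, chr2:17792209-17793604, whose intergenic summit lay past the gene end and at the start of AT2G42750, a DnaJ domain gene. Its levels were 71.1 and 88.0 CPM (DS), 46.7 and 44.8 (L6), 62.5 and 54.4 (L26) and 75.2 and 55.7 (L57). They were lower at L6 than at DS, with a log2 fold change of -0.80 ± 0.15 (SE), adjusted p = 4.44e-06, a call that passed in each of the 8 fits that left out 1 library. The third was the promoter of RPL10C, given with its family. Leaving out L6 replicate 1 or L6 replicate 2 left 1 lower ACR.

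Between 6 h and 26 h of light, few ribosomal protein ACRs passed the test. Of the 73 ACRs, 1 was higher at L26 than at L6 (8.71% of all ACRs were called higher) and 6 were lower (7.91% of all ACRs), with a median log2 fold change of -0.19 against -0.01 over all ACRs. Of the 6, 4 were promoter ACRs and 2 gene body ACRs, and 3 belonged to the large and 3 to the small subunit. At an unadjusted p under 0.05 in edgeR's test, 3 of the 73 were higher and 15 lower, against 4373 and 4228 of all 30223 ACRs. The log2 fold change was positive at 18 of the 73, against 14815 of all 30223. None of the 28 promoter ACRs was higher (1 at an unadjusted p under 0.05, 0 by DESeq2). None of the 19 downstream ACRs was called either way by edgeR (1 higher and 3 lower at an unadjusted p under 0.05), and DESeq2's Wald test called 1 lower, as edgeR did with TMM, size factor and total count scaling. Over all ACRs of the same position, 6.36% of promoter ACRs were higher and 9.57% lower, and 10.9% of downstream ACRs were higher and 6.63% lower. Leaving out 1 library of L6 or L26 also lowered the number of calls over all ACRs, in both directions. The count of lower ACRs was 3 without L6 replicate 1 and 2 without L26 replicate 2, and the 1 higher ACR was lost without L6 replicate 1, L6 replicate 2 or L26 replicate 1.

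The largest fall was at RPL3A (AT1G43170), for a protein next to the peptidyl transferase centre of the large subunit. Its ACR in the 5′ UTR (chr1:16266579-16266906) had 11.0 and 13.5 CPM (DS), 19.7 and 30.1 (L6), 10.2 and 9.06 (L26) and 7.96 and 5.89 (L57). Both L6 libraries were above all the others. The ACR was lower at L26 than at L6, with a log2 fold change of -1.39 ± 0.30 (SE), adjusted p = 0.000157, a call that passed in each of the 8 fits that left out 1 library. Against DS, L6 was higher by a log2 fold change of 1.03 ± 0.25 (SE), adjusted p = 0.000533, a call that was lost without L6 replicate 2 (adjusted p = 0.104). AT5G27850, an L18e/L15 family gene, had an intergenic promoter ACR (chr5:9872549-9873229) with 38.8 and 39.3 CPM (DS), 44.0 and 28.8 (L6), 17.4 and 17.1 (L26) and 20.5 and 27.1 (L57). Both L26 libraries were below both L6 libraries, with a log2 fold change of -1.07 ± 0.25 (SE), adjusted p = 0.000496, and the call was lost without L6 replicate 1 (adjusted p = 0.0871).

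AT2G19730, an L28e family gene, had a coding exon ACR (chr2:8512754-8513054) with 7.44 and 8.12 CPM (DS), 15.4 and 18.9 (L6), 10.7 and 6.38 (L26) and 11.4 and 12.9 (L57). It was higher at L6 than at DS by a log2 fold change of 1.141 ± 0.29 (SE), adjusted p = 0.000834 and lower at L26 than at L6, with a log2 fold change of -1.05 ± 0.32 (SE), adjusted p = 0.0113. The second call was lost without L6 replicate 2 (adjusted p = 0.132) or L26 replicate 2 (adjusted p = 0.305). RPS18C and RPS10B, which rose at L6, were lower at L26 than at L6, with a log2 fold change of -0.88 ± 0.28 (SE), adjusted p = 0.019 and -0.77 ± 0.27 (SE), adjusted p = 0.0327. Total count scaling (adjusted p = 0.0927) and DESeq2's Wald test (0.269) ended the RPS18C call. TMM, size factor and total count scaling (0.062 to 0.133) and DESeq2's Wald test (0.267) ended that of RPS10B. The RPS18C call was lost without L6 replicate 1 (adjusted p = 0.217) or L26 replicate 2 (adjusted p = 0.335), and leaving out any 1 of the L6 or L26 libraries ended the RPS10B call (adjusted p of 0.0744 to 0.236). Of the 8 promoter ACRs higher at L6 than at DS, 3 were lower at L26 than at L6, namely RPS18C, RPS10B and RPS5A; both comparisons use the same L6 libraries. The 1 ACR higher at L26 was the upstream ACR of AT3G04920, by a log2 fold change of 1.15 ± 0.37 (SE), adjusted p = 0.0175.

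**Figure D4:**
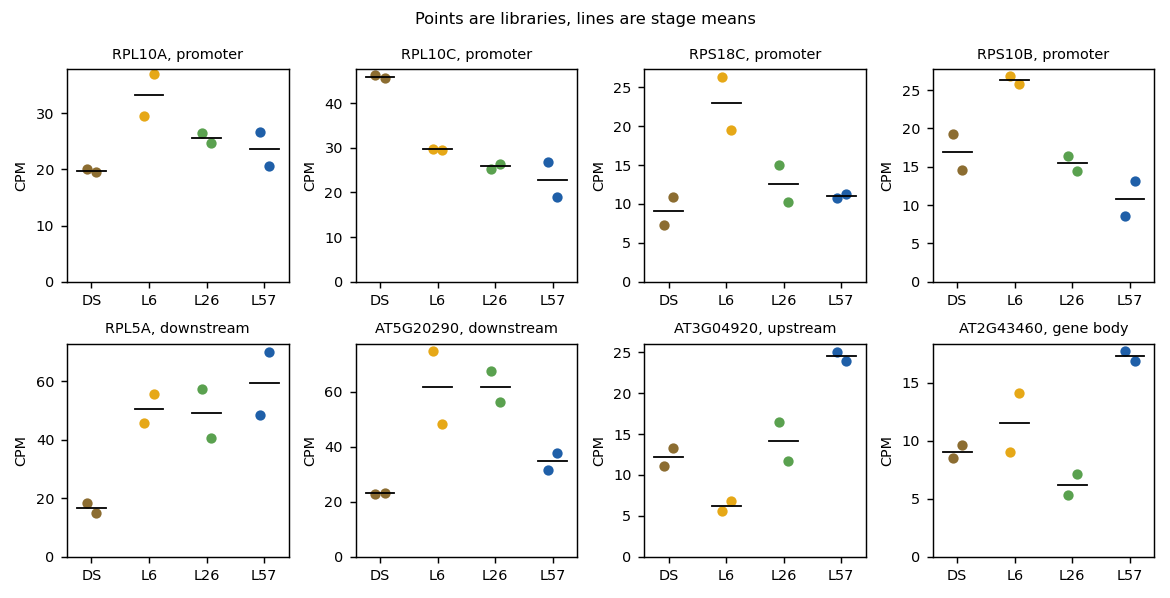
CPM by stage at 8 ACRs, each on its own axis from 0. Points are libraries and lines are the means of 2 libraries. RPL10A, RPS18C and RPS10B were highest at L6, RPL10C was highest at DS, the downstream ACR of RPL5A stayed above DS in all later libraries, and the ACRs of AT3G04920 and AT2G43460 were highest at L57.

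In the seedling, the calls against L26 were again few. Of the 73 ACRs, 4 were higher at L57 than at L26 (7.53% of all ACRs were called higher) and 3 were lower (6.19% of all ACRs), with a median log2 fold change of -0.02, the same as over all ACRs. With TMM, size factor or total count scaling 4 were higher and 5 lower. Leaving out 1 library of L26 or L57 lowered the number of calls over all ACRs in both directions. The count of higher ACRs was 1 without L26 replicate 2, 2 without L57 replicate 1 and 2 without L57 replicate 2, and that of lower ACRs was 1 without L26 replicate 1 and 1 without L57 replicate 2. None of the 28 promoter ACRs was higher (1 at an unadjusted p under 0.05, 0 by DESeq2) and 2 were lower, against 4.12% and 6.73% of all promoter ACRs.

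The 4 ACRs higher at L57 lay inside or far upstream of genes. P40 (AT1G72370), the 40S protein SA that is related to the laminin receptor of animals, had a coding exon ACR (chr1:27243868-27244148) with 11.7 and 12.9 CPM (DS), 11.2 and 11.7 (L6), 7.28 and 5.26 (L26) and 13.7 and 20.8 (L57). It was higher by a log2 fold change of 1.50 ± 0.37 (SE), adjusted p = 0.00231, and the call was lost without L26 replicate 2 (adjusted p = 0.0713) or L57 replicate 2 (adjusted p = 0.135). AT2G43460, an L38e family gene, had a coding exon ACR (chr2:18046549-18046881) with 8.48 and 9.67 CPM (DS), 9.01 and 14.1 (L6), 5.34 and 7.12 (L26) and 17.7 and 16.9 (L57). Both L57 libraries were above all the others, by a log2 fold change of 1.44 ± 0.36 (SE), adjusted p = 0.00279 against L26, a call that passed in each of the 8 fits that left out 1 library. The upstream ACR of AT3G04920 was higher at L57 than at L26 by a log2 fold change of 0.82 ± 0.29 (SE), adjusted p = 0.0439 and an intron ACR of RPS5A (chr3:3778180-3778880) by a log2 fold change of 0.75 ± 0.27 (SE), adjusted p = 0.0477. The intron ACR had 27.6 and 21.1 CPM (DS), 25.5 and 18.1 (L6), 19.4 and 18.96 (L26) and 38.9 and 26.5 (L57), and its call was lost in 4 of the 8 fits that left out 1 library (adjusted p of 0.0506 to 0.452), while that of AT3G04920 was lost in 5 (0.051 to 0.334). Over all gene body ACRs, 11.5% were higher at L57 than at L26 and 2.85% lower.

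Of the 3 ACRs lower at L57 than at L26, the downstream ACR of AT5G20290 had a log2 fold change of -0.82 ± 0.21 (SE), adjusted p = 0.00375, and this call was lost without L26 replicate 1 (adjusted p = 0.0538) or L57 replicate 1 (adjusted p = 0.11). The promoter ACRs of AT3G51190 and AT3G09200 were lower, with a log2 fold change of -0.71 ± 0.20 (SE), adjusted p = 0.00683 and -0.69 ± 0.22 (SE), adjusted p = 0.0232. The call for AT3G51190 was lost without L26 replicate 1 (adjusted p = 0.0859) or L57 replicate 2 (adjusted p = 0.294). The call for AT3G09200 was lost without L26 replicate 2 (adjusted p = 0.104), L57 replicate 1 (adjusted p = 0.0773) or L57 replicate 2 (adjusted p = 0.215).

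Over the whole course, from dry seed to seedling, 12 of the 73 ACRs were higher at L57 than at DS (17.0% of all ACRs were called higher) and 4 were lower (12.2% of all ACRs), with a median log2 fold change of 0.22 against -0.01 over all ACRs. With TMM or size factor scaling the counts were 9 and 5. Leaving out 1 library of DS or L57 lowered the number of calls over all ACRs in both directions. The count of higher ACRs was 7 without DS replicate 1, 6 without L57 replicate 1 and 7 without L57 replicate 2, and that of lower ACRs was 2 without DS replicate 2, 2 without L57 replicate 1 and 2 without L57 replicate 2. Only 1 of the 28 promoter ACRs was higher and 4 were lower, while 7 of the 19 downstream ACRs were higher and none lower (0 at an unadjusted p under 0.05, 0 by DESeq2). Over all ACRs of the same position, 15.6% of promoter ACRs were higher and 15.7% lower, and 23.1% of downstream ACRs were higher and 9.75% lower. With TMM or size factor scaling, 5 downstream ACRs were higher and 1 lower. The 7 became 4 without DS replicate 1, 3 without L57 replicate 1, 4 without L57 replicate 2 and 4 by DESeq2's Wald test. The 1 higher promoter ACR was lost, and 3 were lower, with TMM or size factor scaling. With total count scaling or DESeq2's Wald test 2 promoter ACRs were lower, as without DS replicate 2, L57 replicate 1 or L57 replicate 2.

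By log2 fold change, the 5 largest rises at L57 against DS were at the downstream ACRs of RPL5A (1.85 ± 0.22 (SE), adjusted p = 1.04e-12), RPL10A (1.08 ± 0.33 (SE), adjusted p = 0.00694) and AT5G02870 (0.90 ± 0.29 (SE), adjusted p = 0.00995), at the upstream ACR of AT3G04920 (1.00 ± 0.27 (SE), adjusted p = 0.00211) and at the coding exon ACR of AT2G43460 (0.93 ± 0.30 (SE), adjusted p = 0.0124). Those of RPL5A and AT3G04920 passed in each fit that left out 1 library. The call for RPL10A was lost without DS replicate 2 (adjusted p = 0.0573) or L57 replicate 2 (adjusted p = 0.313). The call for AT5G02870 was lost without L57 replicate 2 (adjusted p = 0.144), and that for AT2G43460 was lost without DS replicate 1 (adjusted p = 0.0755), L57 replicate 1 (adjusted p = 0.0855) or L57 replicate 2 (adjusted p = 0.0832). The downstream ACR of AT5G02870 (chr5:659740-660406, intergenic), next to an L4 gene, had 13.1 and 13.1 CPM (DS), 33.4 and 26.4 (L6), 20.9 and 36.4 (L26) and 22.9 and 26.0 (L57), and it was also higher at L6 than at DS by a log2 fold change of 1.18 ± 0.25 (SE), adjusted p = 5.04e-05.

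The 4 ACRs lower at L57 than at DS were promoter ACRs, with log2 fold changes in brackets, those of RPL10C (-1.02 ± 0.23 (SE), adjusted p = 0.00015), P40 (-0.78 ± 0.29 (SE), adjusted p = 0.032), AT5G27850 (-0.70 ± 0.24 (SE), adjusted p = 0.0158) and EMB2296 (-0.48 ± 0.17 (SE), adjusted p = 0.0222). None of these calls passed in each fit that left out 1 library. The P40 call was lost with TMM, size factor and total count scaling (adjusted p of 0.0571 to 0.113) and in DESeq2's Wald test (0.177). That for AT5G27850 was lost with total count scaling (0.0604) and in DESeq2's Wald test (0.121), and that for EMB2296 with GC-corrected offsets (0.0696). The call for RPL10C was lost without L57 replicate 2 (adjusted p = 0.053) and that for AT5G27850 was lost without L57 replicate 1 (adjusted p = 0.211). The call for P40 was lost without DS replicate 1 (adjusted p = 0.11), DS replicate 2 (adjusted p = 0.06) or L57 replicate 1 (adjusted p = 0.292) and that for EMB2296 was lost without DS replicate 2 (adjusted p = 0.0922), L57 replicate 1 (adjusted p = 0.0787) or L57 replicate 2 (adjusted p = 0.238).

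Across the 4 stages, 30 of the 73 ACRs and 14 of the 28 promoter ACRs were called in none of the 4 comparisons, against 44.3% of all ACRs and 45.6% of all promoter ACRs. The median ratio of the highest to the lowest stage mean was 1.38 at the 28 promoter ACRs, against 1.60 at all promoter ACRs, and 1.71 at the other member ACRs, against 1.68 at all ACRs. L6 had the highest stage mean in 38 of the 73 ACRs, L57 in 17, L26 in 10 and DS in 8; over all ACRs the shares were 24.7% for L6, 25.5% for L57, 20.7% for L26 and 29.1% for DS.

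The strongest member ACRs were promoter ACRs in the large subunit and upstream or downstream ACRs in the small subunit. In the large subunit, the promoter ACR of RPL23AA (AT2G39460), whose product sits at the exit of the peptide tunnel, had 122 and 118 CPM (DS), 151 and 162 (L6), 169.9 and 159 (L26) and 164 and 129.6 (L57). Its summit (chr2:16473776-16474983) lay in the 5′ UTR of MTP11, a cation efflux gene that starts on the other strand, and it was higher at L6 than at DS by a log2 fold change of 0.39 ± 0.10 (SE), adjusted p = 0.00159. The call was lost without DS replicate 2 (adjusted p = 0.0707) and with GC-corrected offsets (0.0885). RPL24B (AT3G53020, chr3:19661639-19662848, intergenic, also at the start of AT3G53030) had 96.0 and 97.7 CPM (DS), 89.0 and 97.6 (L6), 86.6 and 90.4 (L26) and 98.4 and 95.4 (L57). AT1G70600 (chr1:26621328-26622107, intergenic, also at the start of AT1G70610), an L18e/L15 family gene, had 96.6 and 88.7 CPM (DS), 109 and 85.8 (L6), 96.1 and 84.7 (L26) and 107 and 77.4 (L57). Neither of these last 2 was called in any comparison, and their log2 fold changes were between -0.11 and 0.13.

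In the small subunit, the strongest ACR was one upstream of RPS15 (AT1G04270, chr1:1142925-1144187), with its summit in a coding exon of the neighbour AT1G04280 and 174 and 191 CPM (DS), 168 and 196 (L6), 177 and 170.0 (L26) and 204 and 178 (L57). It passed in no comparison, with a log2 fold change of 0.06 ± 0.11 (SE), adjusted p = 0.72 at L57 against DS, but with TMM, size factor or total count scaling it was called lower there (-0.58 to -0.48). The next were downstream ACRs, those of RPS6B, given with its family, and of AT3G04920 (chr3:1362348-1363197), in the 5′ UTR of the neighbour AT3G04930, with 84.1 and 83.1 CPM (DS), 105 and 107 (L6), 91.3 and 85.5 (L26) and 91.5 and 95.9 (L57). This downstream ACR was higher at L6 than at DS by a log2 fold change of 0.35 ± 0.12 (SE), adjusted p = 0.0188, a call that leaving out any 1 of the DS or L6 libraries ended (adjusted p of 0.0566 to 0.156).

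The weakest ACRs rested on few reads. EMB2386 (AT1G02780), an L19e family gene whose name marks an embryo-defective mutant, had a 5′ UTR ACR (chr1:609239-609603) with 9.63 and 7.40 CPM (DS), 17.1 and 18.2 (L6), 17.0 and 13.2 (L26) and 7.97 and 11.8 (L57), from 14 to 53 reads a library. L6 was higher than DS by a log2 fold change of 1.05 ± 0.29 (SE), adjusted p = 0.00224, and the call was lost without DS replicate 2 (adjusted p = 0.0613). AT5G27700, an S21e family gene, had a downstream intergenic ACR (chr5:9807008-9807405) with 7.24 and 8.74 CPM (DS), 13.01 and 18.5 (L6), 19.4 and 15.8 (L26) and 11.4 and 11.3 (L57). L6 was higher than DS by a log2 fold change of 0.98 ± 0.30 (SE), adjusted p = 0.00645, and the call was lost without DS replicate 1 (adjusted p = 0.0901) or L6 replicate 2 (adjusted p = 0.181).

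Paralogs were compared by the log2 ratio of their CPM within each library, which cancels the depth of the library. The 9 families with at least 2 measured genes gave 13 pairs, and each gene was represented by the ACR with its summit nearest the start. An exact permutation test over the 105 ways to assign 8 libraries to 4 stages of 2, adjusted over the 13 pairs, called none: 1 pair had an unadjusted p under 0.05, and no pair passed with total count scaling or with the strongest ACR of each gene. The smallest p the test allows is 0.00952, so that a single pair cannot pass after adjustment. In 8 of the pairs both ACRs were promoter ACRs. For 2 pairs the ratio depended on the ACR taken. With the strongest ACR of each gene, the range of the stage means of P40 over RPSAb went from 1.71 to 0.827. That of RPL5A over RPL5B went from 0.596 to 1.78, and the other pairs kept theirs.

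The L10 family, of the L16p/L10e type, had 2 measured genes. The promoter ACR of RPL10A (chr1:4887801-4888353, 5′ UTR, also at the start of AT1G14315) had 20.1 and 19.4 CPM (DS), 29.6 and 36.9 (L6), 26.5 and 24.6 (L26) and 26.7 and 20.6 (L57). The promoter ACR of RPL10C (AT1G66580, chr1:24838662-24839260, intergenic), also named SENESCENCE ASSOCIATED GENE 24, had 46.2 and 45.6 CPM (DS), 29.8 and 29.5 (L6), 25.4 and 26.3 (L26) and 26.7 and 18.98 (L57). RPL10A was higher at L6 than at DS by a log2 fold change of 0.75 ± 0.22 (SE), adjusted p = 0.00452. RPL10C was lower, with a log2 fold change of -0.63 ± 0.19 (SE), adjusted p = 0.00573. The L6 and DS libraries did not overlap at either gene, as at 67.9% of all ACRs. In DESeq2's Wald test both calls were lost (adjusted p = 0.0541 for RPL10A and 0.109 for RPL10C). The log2 ratio of RPL10A to RPL10C was -1.22 ± 0.02 at DS, 0.16 ± 0.23 at L6, -0.02 ± 0.11 at L26 and 0.06 ± 0.09 at L57 (SD, n = 2 each, exact permutation p = 0.0952, adjusted p = 0.177). The call for RPL10A was lost without DS replicate 2 (adjusted p = 0.0507) or L6 replicate 2 (adjusted p = 0.107). That for RPL10C was lost without L6 replicate 1 (adjusted p = 0.0502) or L6 replicate 2 (adjusted p = 0.0586). Their annotated proteins share 94.1% of residues, and the third gene, RPL10B, had no ACR. RPL10A is known for a part in antiviral signalling through the NIK1 receptor kinase.

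**Figure D5:**
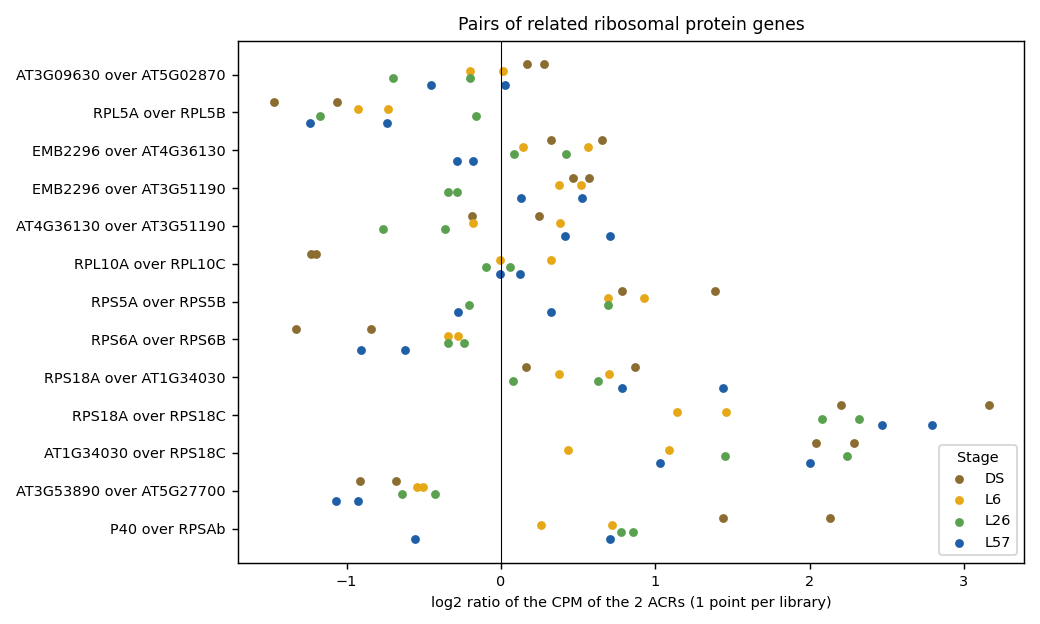
Log2 ratio of the CPM of 2 paralogs in each library, for the 13 pairs. Each row has 2 points per stage, and 0 marks equal CPM. The RPL10A over RPL10C ratio was -1.20 and -1.23 in the DS libraries and between -0.09 and 0.32 in the other 6.

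The 3 S18 genes encode proteins that are 100% identical in sequence, and their ACRs differed in level. RPS18A (AT1G22780), also named POINTED FIRST LEAVES after the leaf shape of its mutant, had no promoter ACR. The ACR nearest its start (chr1:8066731-8068015) had its summit in a coding exon of GIGANTEA, a clock gene, with 64.7 and 50.2 CPM (DS), 58.0 and 53.8 (L6), 63.8 and 50.8 (L26) and 74.5 and 62.5 (L57). AT1G34030 had an intergenic promoter ACR (chr1:12371132-12372079) with 35.5 and 44.9 CPM (DS), 35.6 and 41.4 (L6), 41.3 and 48.1 (L26) and 43.2 and 22.99 (L57). Neither of these ACRs was called in any comparison, while RPS18C rose at L6. A second RPS18A ACR (chr1:8068990-8069532), with its summit in the 3′ UTR and at the start of AT1G22790, also rose. It had 15.2 and 19.4 CPM (DS) and 28.6 and 29.8 (L6), a log2 fold change of 0.75 ± 0.23 (SE), adjusted p = 0.00782. Leaving out DS replicate 1 or L6 replicate 2 ended this call, as did GC correction and DESeq2's Wald test. The log2 ratio of AT1G34030 to RPS18C was 2.17 ± 0.18 at DS, 0.76 ± 0.46 at L6, 1.85 ± 0.55 at L26 and 1.51 ± 0.69 at L57 (SD, n = 2 each, exact permutation p = 0.181, adjusted p = 0.26). That of RPS18A to RPS18C was 2.68 ± 0.67 at DS, 1.30 ± 0.23 at L6, 2.20 ± 0.16 at L26 and 2.63 ± 0.22 at L57 (SD, n = 2 each, exact permutation p = 0.0762, adjusted p = 0.177). The ratio of RPS18A to AT1G34030 had an exact p of 0.457. RPS18C had the lowest CPM of the 3 in every library, in an ACR of 445 bp, against 948 bp at AT1G34030 and 1285 bp at RPS18A.

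In the S5 family, RPS5A (AT3G11940), known as ARABIDOPSIS MINUTE-LIKE 1 and needed for embryo growth, had an intergenic promoter ACR (chr3:3779254-3779735) with 17.3 and 28.2 CPM (DS), 30.4 and 40.6 (L6), 28.9 and 17.8 (L26) and 20.7 and 16.1 (L57). It was higher at L6 than at DS by a log2 fold change of 0.64 ± 0.21 (SE), adjusted p = 0.0143 and lower at L26 than at L6, with a log2 fold change of -0.64 ± 0.24 (SE), adjusted p = 0.0457. The first call was lost without DS replicate 1 (adjusted p = 0.412) or L6 replicate 2 (adjusted p = 0.25), and the second was lost in 4 of the 8 fits and with TMM, size factor and total count scaling (adjusted p of 0.0624 to 0.147). RPS5B (AT2G37270) was represented by a 5′ UTR ACR (chr2:15649139-15649518) with 10.1 and 10.8 CPM (DS), 18.8 and 21.4 (L6), 17.9 and 20.6 (L26) and 16.5 and 19.4 (L57). It was higher at L6 than at DS by a log2 fold change of 0.95 ± 0.28 (SE), adjusted p = 0.00443 and at L57 than at DS by a log2 fold change of 0.79 ± 0.31 (SE), adjusted p = 0.0425. The first call was lost without DS replicate 1 (adjusted p = 0.0557) or L6 replicate 2 (adjusted p = 0.061), and leaving out any 1 of the DS or L57 libraries ended the second (0.0733 to 0.28). The log2 ratio of RPS5A to RPS5B was 1.09 ± 0.43 at DS, 0.81 ± 0.16 at L6, 0.24 ± 0.64 at L26 and 0.03 ± 0.43 at L57 (SD, n = 2 each, exact permutation p = 0.2, adjusted p = 0.26).

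The S6 genes had no promoter ACR. S6 is the ribosomal protein that the TOR pathway phosphorylates through S6 kinase. RPS6A (AT4G31700) had a 1477 bp ACR that reached from the gene into the intergenic space past its end (chr4:15345599-15347075), with 39.5 and 31.3 CPM (DS), 81.9 and 79.2 (L6), 90.4 and 82.0 (L26) and 75.7 and 52.4 (L57). RPS6B (AT5G10360) had a 1791 bp ACR (chr5:3257730-3259520) whose summit lay past its end, at the start of AT5G10350, an RNA-binding protein gene, with 70.7 and 78.7 CPM (DS), 99.5 and 100.4 (L6), 107 and 104 (L26) and 116 and 98.2 (L57). Both were higher at L6 than at DS, RPS6A by a log2 fold change of 1.19 ± 0.15 (SE), adjusted p = 3.37e-11 and RPS6B by a log2 fold change of 0.42 ± 0.12 (SE), adjusted p = 0.00476, and at L57 than at DS, by a log2 fold change of 0.83 ± 0.19 (SE), adjusted p = 0.000131 and 0.51 ± 0.14 (SE), adjusted p = 0.0026. The RPS6A call at L6 passed in each fit that left out 1 library, and its call at L57 was lost without L57 replicate 1 (adjusted p = 0.0663). The RPS6B call at L6 was lost without DS replicate 1 (adjusted p = 0.161). The RPS6B call at L57 was lost without DS replicate 1 (adjusted p = 0.0678) or L57 replicate 1 (adjusted p = 0.075), and with TMM, size factor and total count scaling (0.162 to 0.437). As log2, the ratio of RPS6A to RPS6B was -1.08 ± 0.35 at DS, -0.31 ± 0.04 at L6, -0.29 ± 0.07 at L26 and -0.76 ± 0.20 at L57 (SD, n = 2 each, exact permutation p = 0.0571, adjusted p = 0.177).

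The SA pair set a promoter ACR against a downstream one. P40 had an intergenic promoter ACR (chr1:27244717-27245187, also at the start of AT1G72390) with 24.4 and 22.8 CPM (DS), 17.0 and 23.2 (L6), 21.1 and 20.6 (L26) and 10.9 and 16.2 (L57). RPSAb (AT3G04770) had a single ACR, intergenic and past its end (chr3:1308856-1309147), with 5.58 and 8.38 CPM (DS), 14.2 and 14.1 (L6), 11.7 and 12.01 (L26) and 15.99 and 9.93 (L57). The RPSAb ACR was higher at L6 than at DS by a log2 fold change of 1.014 ± 0.31 (SE), adjusted p = 0.00637 and at L57 than at DS by a log2 fold change of 0.86 ± 0.35 (SE), adjusted p = 0.0494. The first call was lost without DS replicate 1 (adjusted p = 0.144), and the second was lost without DS replicate 1 (adjusted p = 0.312), L26 replicate 1 (adjusted p = 0.0545), L26 replicate 2 (adjusted p = 0.0525) or L57 replicate 1 (adjusted p = 0.49). The log2 ratio of P40 to RPSAb was 1.78 ± 0.48 at DS, 0.49 ± 0.33 at L6, 0.82 ± 0.05 at L26 and 0.07 ± 0.89 at L57 (SD, n = 2 each, exact permutation p = 0.0381, adjusted p = 0.177), the one pair with an unadjusted p under 0.05. Their proteins share 60.8% of residues, the lowest share of the 13 pairs.

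The L2 family, whose proteins line the peptidyl transferase centre, had 3 measured genes with promoter ACRs. EMB2296 (AT2G18020, chr2:7836800-7837566, intergenic) had 70.8 and 76.9 CPM (DS), 80.4 and 67.4 (L6), 60.2 and 51.8 (L26) and 55.03 and 51.0 (L57). AT4G36130 (chr4:17097134-17098204, 5′ UTR, also at the start of AT4G36120) had 56.6 and 48.9 CPM (DS), 54.5 and 61.1 (L6), 45.0 and 49.0 (L26) and 67.1 and 57.9 (L57) and was called in no comparison. AT3G51190 (chr3:19017143-19018353, intergenic) had 47.7 and 55.7 CPM (DS), 61.9 and 47.0 (L6), 76.5 and 63.0 (L26) and 50.3 and 35.5 (L57), with both L26 libraries above the other 6. The log2 ratio of AT4G36130 to AT3G51190 was 0.03 ± 0.31 at DS, 0.10 ± 0.40 at L6, -0.56 ± 0.28 at L26 and 0.56 ± 0.20 at L57 (SD, n = 2 each, exact permutation p = 0.0952, adjusted p = 0.177). That of EMB2296 to AT3G51190 was 0.52 ± 0.07 at DS, 0.45 ± 0.10 at L6, -0.31 ± 0.04 at L26 and 0.33 ± 0.28 at L57 (SD, n = 2 each, exact permutation p = 0.0952, adjusted p = 0.177). The ratio of EMB2296 to AT4G36130 had an exact p of 0.152.

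The L4 and L5 pairs had promoter ACRs at all 4 genes. AT3G09630 (chr3:2953463-2954410, intergenic), for an L4 protein that lines the peptide tunnel, had 71.9 and 71.3 CPM (DS), 70.9 and 64.7 (L6), 68.7 and 50.0 (L26) and 72.4 and 69.4 (L57). Its paralog AT5G02870 (chr5:657185-658121, 5′ UTR) had 63.9 and 58.7 CPM (DS), 70.2 and 74.5 (L6), 78.9 and 81.1 (L26) and 71.0 and 95.0 (L57). AT5G02870 was higher at L57 than at DS by a log2 fold change of 0.45 ± 0.16 (SE), adjusted p = 0.0191, the 1 promoter call of that kind, which was lost without DS replicate 2 (adjusted p = 0.151) or L57 replicate 2 (adjusted p = 0.518) and with TMM, size factor and total count scaling (0.101 to 0.291). For the L4 pair, the log2 ratio of AT3G09630 to AT5G02870 was 0.23 ± 0.08 at DS, -0.09 ± 0.15 at L6, -0.45 ± 0.35 at L26 and -0.21 ± 0.34 at L57 (SD, n = 2 each, exact permutation p = 0.238, adjusted p = 0.281). RPL5A (chr3:9271255-9271775, intergenic) had 19.7 and 28.03 CPM (DS), 39.8 and 28.7 (L6), 34.8 and 25.9 (L26) and 29.0 and 33.2 (L57), with a log2 fold change of 0.51 ± 0.21 (SE), adjusted p = 0.0503 at L6 against DS. RPL5B (AT5G39740, chr5:15902548-15903458, intergenic) had 54.5 and 58.2 CPM (DS), 66.1 and 54.7 (L6), 38.9 and 58.1 (L26) and 68.3 and 55.5 (L57). Mutants of both L5 genes are known as OLIGOCELLULA for their few leaf cells, and the log2 ratio of RPL5A to RPL5B was -1.26 ± 0.29 at DS, -0.83 ± 0.14 at L6, -0.67 ± 0.71 at L26 and -0.99 ± 0.35 at L57 (SD, n = 2 each, exact permutation p = 0.619, adjusted p = 0.619).

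In the S21 family, AT3G53890 (chr3:19956250-19956664, 5′ UTR) had 28.4 and 22.8 CPM (DS), 35.5 and 32.7 (L6), 32.5 and 25.4 (L26) and 25.9 and 27.01 (L57). AT5G27700 (chr5:9807608-9808704, intergenic) had 45.6 and 43.0 CPM (DS), 51.8 and 46.4 (L6), 50.7 and 34.2 (L26) and 54.5 and 51.3 (L57). Neither promoter was called in any comparison, and AT3G53890 was below AT5G27700 in every library. Their log2 ratio was -0.80 ± 0.16 at DS, -0.52 ± 0.03 at L6, -0.54 ± 0.15 at L26 and -1 ± 0.11 at L57 (SD, n = 2 each, exact permutation p = 0.0571, adjusted p = 0.177).

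Further ribosomal protein genes of the annotation were taken as a list for comparison, chosen by symbol and product with earlier results of these data known. They were 276 genes, among which some organellar ones may remain because their product names no compartment. Of their 191 promoter ACRs, 43 were higher (22.5%, against 21.8% of all promoter ACRs) and 1 lower (0.524%, against 8.83%) at L6 than at DS, with a median log2 fold change of 0.25. Over the 100 genes with names of eukaryotic type, 22 of 69 promoter ACRs were higher, with a median of 0.39. Of all 370 ACRs of the 276 genes, 100 were higher and 13 lower at L6 than at DS, where 17.6% and 14.3% of all ACRs were. At L57 against DS, 69 were higher (18.6%, against 17.0% of all ACRs) and 21 lower (5.68%, against 12.2%). A telo-box lay within 250 bases of the start at 164 of the 276 genes (59.4%), against 34 of the 41 genes (82.9%) and 13.9% of all protein-coding genes.

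Genes that work with the ribosome were counted in the same way, beside the background of 17.6% of all ACRs higher and 14.3% lower at L6 than at DS, and 8.71% higher and 7.91% lower at L26 than at L6. Ribosome assembly factors had 17 ACRs at 9 of 10 genes, of which 8 were higher and 2 lower at L6 than at DS, and 1 was higher and 8 lower at L26 than at L6. Translation factors had 16 ACRs at 8 genes, with 9 higher at L6 than at DS and 7 not called. Genes of growth signalling through TOR had 8 ACRs at 5 genes, with 2 higher and 1 lower at L6 than at DS. The medians at L6 against DS were 0.28, 0.40 and -0.15, against 0.36 at the 73 ribosomal protein ACRs and -0.01 over all ACRs.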

How the data were processed

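ATAC-seq libraries of 4 stages were analysed, 2 per stage. Per the labels and the study's methods, the authors trimmed reads with fastp 0.23.4, aligned them to TAIR10 with Bowtie2 2.4.4, filtered them with SAMtools 1.14, removed duplicates with Genrich 0.6.1 and called ACRs with MACS3 3.0.0b3. The deposited tables hold raw read counts per ACR and CPM values, which the authors computed with csaw's trended offsets. Those offsets were recomputed from the counts. Stages were compared in 1 edgeR 4.0.16 quasi-likelihood model (R 4.3.3, limma 3.58.1), with adjustment over 30223 ACRs and a threshold of 0.05. The code was tested on simulated data. ACRs were assigned to genes by their summit and the TAIR10.1 RefSeq annotation. Sequences are from RefSeq TAIR10.1. Alternatives were other scalings, GC-corrected offsets, DESeq2 1.42.0, an earlier edgeR test, a count filter, 2 stages alone, a replicate block, promoter ACRs only and each library left out. Values per library are given for the ACR that stands for each paralog, for the 5 largest rises and falls among calls of each comparison and for the 3 highest and lowest ACRs of each subunit. Other per-library values were chosen after the data were seen. The members and lists were chosen with earlier results of these data known. Counting error is largest for the seedling libraries, which had the lowest totals.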

Additional observations from a re-analysis of the deposited data

How the results depend on the processing

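Of the ribosomal protein ACRs, 32 were higher and 3 lower at L6 than at DS; DESeq2's Wald test gave 17 and 1, promoter ACRs only gave 8 and 1, and leaving out 1 library gave 18 to 34 and 1 to 3. At L26 against L6, the 1 higher ACR became 0 among promoter ACRs only and 0 to 1 with 1 library left out, and the 6 lower ACRs became 10 with DESeq2 size factors and 2 to 6 with 1 library left out. At L57 against L26, the 4 higher ACRs became 2 with DESeq2's Wald test, 0 among promoter ACRs only and 1 to 4 with 1 library left out, and the 3 lower ACRs became 5 with TMM factors, 5 with DESeq2 size factors, 5 with total counts and 1 to 3 with 1 library left out. At L57 against DS, the 12 higher ACRs became 6 with DESeq2's Wald test, 1 among promoter ACRs only and 6 to 12 with 1 library left out, and the 4 lower ACRs 2 to 4. Fewer ACRs are counted among promoters only, and the other causes were not tested. The promoter ACR of RPL23AA at L26 against L6 (0.07) became -0.32 with TMM factors and -0.34 with DESeq2 size factors, both past the threshold. The upstream ACR of RPS15 at L57 against DS (0.06) became -0.58 with TMM factors, -0.56 with DESeq2 size factors, -0.48 with total counts and -0.56 with DESeq2's Wald test. Over all ACRs, the share of calls that were higher at L6 than at DS was 55.1%, against 44.7% with total counts and 71.1% with DESeq2's Wald test; at L26 against L6 it was 52.4%, 62.6% with total counts and 38.6% with DESeq2's Wald test, and at L57 against L26 it was 54.9% and 40.9% with DESeq2's Wald test. In each comparison, leaving out 1 library of either stage lowered the number of calls over all ACRs in both directions. DESeq2's Wald test also called fewer over all ACRs in both directions than edgeR did. The count filter removed no ACR. Replicate numbers did not pair the samples, with correlations of replicate differences between stages of -0.0405 to 0.0231; with a replicate block, 32 and 3, 1 and 6, 3 and 3, and 11 and 4 ACRs were higher and lower in the 4 comparisons. With 2 libraries a stage and few reads at weak ACRs, small changes may not have been detectable.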
